A study of Mus musculus with 60 samples.

Results

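The genes described here are the FGF ligands and receptors of mouse embryonic stem cells, taken from RNA-seq counts as the genes with one of 9 given symbols. They are the ligands Fgf4, Fgf8, Fgf10, Fgf15 and Fgf17 and the receptors Fgfr1, Fgfr2, Fgfr3 and Fgfr4, 9 of the 50559 genes in the count table. All members but Fgf8 passed the filter on low counts, so 8 members were tested and Fgf8 is given by its levels. Polyadenylated RNA was measured in 60 libraries, 3 per group, from 4 lines at 5 times in 2i. Eed KO and Ezh2 KO are Cas9-edited derivatives of the line 1A with loss of function of Eed or of Ezh2. V19 WT is a wild-type line derived independently, and 1A WT is the wild-type parent of the knockouts. Each knockout is a single line in the labels, so an effect of the lost gene and another trait of that line cannot be told apart. The replicates repeat that line. The starting groups at 0 h grew on gelatin in medium with 15% FBS and LIF and had no inhibitor. The later groups had 2i, renewed daily, for 12, 24, 48 or 96 h: CHIR99021 at 3 µM, an inhibitor of GSK3, and PD0325901 at 1 µM, an inhibitor of the kinase MEK. Serum and LIF were common to all groups.

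FGF ligands bind receptor tyrosine kinases on the cell surface together with heparan sulfate. The activated receptors signal through adaptors and Ras to the kinases Raf, MEK and ERK. In mouse embryonic stem cells this cascade, driven mainly by Fgf4 acting on Fgfr1, moves cells out of naive pluripotency, and its block at MEK is the reason PD0325901 is part of 2i. In the blastocyst, Fgf4 from the epiblast acts through Fgfr1 and Fgfr2 on the primitive endoderm and on the trophectoderm lineage. Eed and Ezh2 belong to the core of Polycomb repressive complex 2 (PRC2), an enzyme of gene silencing that methylates a lysine of histone H3.

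Because PRC2 acts chiefly at promoters rich in CG pairs, the promoters of members whose level was higher in Eed KO than in 1A WT at 0 h are shown, where the RefSeq promoter table has one. The table holds 5 of the 9 members (Fgf4, Fgf10, Fgfr2, Fgfr3 and Fgfr4) on build GRCm38.p6, which is not the build of the counts. Each sequence runs 5′ to 3′ on the gene's strand, 250 bases before the start and 50 after it, with every CG in capitals. The windows are chr13:118714449-118714748 (plus strand) for Fgf10 and chr7:130266759-130267058 (minus strand) for Fgfr2. Those of the other two are chr5:33721474-33721773 (plus strand, the first of 2 starts listed) for Fgfr3 and chr13:55152568-55152867 (plus strand) for Fgfr4.

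Fgf10: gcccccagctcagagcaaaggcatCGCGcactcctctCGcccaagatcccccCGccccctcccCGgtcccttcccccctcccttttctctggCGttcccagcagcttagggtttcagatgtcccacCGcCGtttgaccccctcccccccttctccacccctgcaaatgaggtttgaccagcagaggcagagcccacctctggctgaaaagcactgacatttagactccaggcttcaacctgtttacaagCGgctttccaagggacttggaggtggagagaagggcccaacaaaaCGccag
Fgfr2: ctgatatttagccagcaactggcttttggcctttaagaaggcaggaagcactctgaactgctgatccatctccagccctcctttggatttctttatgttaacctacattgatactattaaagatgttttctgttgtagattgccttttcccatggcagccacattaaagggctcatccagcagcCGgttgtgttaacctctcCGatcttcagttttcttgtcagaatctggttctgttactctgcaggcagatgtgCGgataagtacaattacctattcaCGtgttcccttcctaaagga
Fgfr3: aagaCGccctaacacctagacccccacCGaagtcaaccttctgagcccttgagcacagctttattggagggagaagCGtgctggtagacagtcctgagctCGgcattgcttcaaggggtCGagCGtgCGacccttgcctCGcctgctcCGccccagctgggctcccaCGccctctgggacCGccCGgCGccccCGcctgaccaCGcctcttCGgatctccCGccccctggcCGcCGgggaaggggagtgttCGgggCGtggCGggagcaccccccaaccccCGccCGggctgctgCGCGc
Fgfr4: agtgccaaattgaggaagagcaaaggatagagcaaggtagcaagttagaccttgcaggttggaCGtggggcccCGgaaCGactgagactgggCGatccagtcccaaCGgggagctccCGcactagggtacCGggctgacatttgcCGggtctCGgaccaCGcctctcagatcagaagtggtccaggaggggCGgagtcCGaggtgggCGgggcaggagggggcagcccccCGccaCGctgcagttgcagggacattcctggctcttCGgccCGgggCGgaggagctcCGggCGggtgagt

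The letters searched were CG, which reads the same on both strands, and 300-base promoters of the table held a median of 7. Fgfr2 had 4 CG pairs, and 68.6% of 32851 promoters had at least as many. Fgf10 had 10 (43.5%), Fgfr4 had 20 (26.5%) and Fgfr3 had 26 (16.9%). The promoter of Fgf4, whose level was lower in Eed KO, had 28 (14.2%). The 4 promoters shown ranged widely in CG content, and no histone mark was measured here. The directions at 0 h by which they were chosen are those of the counts. In the authors' values adjusted for unwanted variation (RUV), the log2 difference was 2.40 for Fgf10, 1.25 for Fgfr4 and 1.485 for Fgfr3. That of Fgfr3 did not pass at an adjusted p under 0.05. For Fgfr2 the difference turned to -1.02, and for Fgf4 to 0.21.

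Library totals ran from 2561169 to 11065948 counts with a median of 6055990, and 15083 genes were tested. The targeted genes matched the labels: Eed was at 15.3 to 28.2 CPM in Eed KO libraries and at 246.1 to 393.4 CPM in 1A WT. Ezh2 was at 14.5 to 19.9 CPM in Ezh2 KO libraries and at 194 to 277.7 CPM in 1A WT. The 10 markers of embryonic stem cells had a count in every line, with summed levels of 3928 to 5914 CPM in Eed KO, 6863 to 9505 in Ezh2 KO, 5638 to 10950 in V19 WT and 5027 to 10290 in 1A WT. A set of 10 libraries deviated from their group by over 1.5 times the median deviation. They were replicates 1 and 3 of Eed KO at 12 h, of Ezh2 KO at 12 h and of 1A WT at 24 h. The others were replicates 2 and 3 of V19 WT at 48 h, replicate 3 of Eed KO at 24 h and replicate 3 of 1A WT at 48 h. Each call of a member that was lost without these 10 libraries is named with that member.

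Levels are counts scaled to the same library size (CPM) with TMM factors, given as mean ± SD over 3 libraries. Changes are log2 fold changes ± SE from edgeR's quasi-likelihood test, called at a Benjamini-Hochberg adjusted p under 0.05 over all genes tested. Set per kilobase of exon so that genes can be compared, mean levels over the 60 libraries were highest for Fgf4 (97.6 CPM per kilobase), Fgfr1 (23), Fgf17 (5.64) and Fgfr2 (3.24). Lower levels, in the same unit, were those of Fgf15 (1.2), Fgf10 (1.04), Fgfr4 (0.873), Fgfr3 (0.448) and Fgf8 (0.189). This order is that of the pooled mean and changes with group. In 1A WT, Fgf15 was below Fgf10 at 96 h (0.364 against 0.838 CPM per kilobase) and above it at 0 h (4.6 against 0.143). One ligand and one receptor, Fgf4 and Fgfr1, were in the pooled means the most abundant of their kind. Fgf4 rested on 625 to 4671 counts per library and Fgfr1 on 314 to 1436, whereas Fgf15 rested on a median of 7 counts, Fgfr3 on 9 and Fgfr4 on 11.5. Since these are bulk samples, fewer cells that express a gene and less RNA per cell cannot be told apart.

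Fgf4 (chromosome 7, 144415123 to 144418982, plus strand, GRCm39), the autocrine ligand of embryonic stem cells, was lower in Eed KO than in 1A WT in the counts of all 5 times. In the authors' deposited RUV-normalized values, counts from which they removed unwanted variation, this direction turned at 0, 12 and 96 h. Its changes in 2i ran from -0.37 to 0.72 on the log2 scale over the 4 lines. In Eed KO it was at 159 ± 5.82, 158 ± 23.7, 133 ± 2.26, 156 ± 9.45 and 202 ± 3.98 CPM at 0, 12, 24, 48 and 96 h. Ezh2 KO had 329.8 ± 9.56, 428 ± 22.8, 400.4 ± 10.01, 393 ± 22.2 and 256 ± 14.4 CPM. The means in V19 WT were 277 ± 7.88, 358 ± 7.74, 387 ± 10.9, 455 ± 37.2 and 315 ± 9.21 CPM. 1A WT had 252 ± 9.35, 279 ± 13.4, 309.9 ± 21.8, 374 ± 25.1 and 296 ± 9.25 CPM. The 3 Eed KO libraries lay below all 3 1A WT libraries at every time. The highest of the 20 groups was V19 WT at 48 h and the lowest was Eed KO at 24 h. Of the 19 neighbouring pairs of groups in the order of means, 14 overlapped in their libraries. Per library, Eed KO at 24 h had 131, 136 and 133 CPM, against 294, 301 and 335 CPM in 1A WT. The log2 fold change of Eed KO against 1A WT was -0.66 ± 0.07 at 0 h, -0.83 ± 0.07 at 12 h, -1.22 ± 0.07 at 24 h, -1.26 ± 0.07 at 48 h and -0.55 ± 0.07 at 96 h, all called. In the RUV-normalized values the difference was positive at 0 h (0.21), 12 h (0.20) and 96 h (0.46), the 12 h value not being called. At 24 and 48 h it kept its sign and its call but was smaller, at -0.25 and -0.26. In those values Eed itself differed between Eed KO and 1A WT by -0.61 (log2) at 0 h, against -3.94 in CPM.

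Ezh2 KO differed the other way, with Fgf4 higher than in 1A WT at 0 h (0.39 ± 0.07), 12 h (0.61 ± 0.07) and 24 h (0.37 ± 0.07). At 48 h the difference was 0.07 ± 0.07, which was not called. At 96 h it was lower, with 240.4, 258 and 269 CPM in Ezh2 KO against 287, 306 and 296 CPM in 1A WT (-0.21 ± 0.07, adjusted p = 0.042). That last call was lost when any one of 5 of the 6 libraries was left out (values -0.23 to -0.17), under no filter, in the groups compared alone and in the RUV-normalized values (-0.20). Set against Ezh2 KO, Eed KO differed by -1.05 ± 0.07 at 0 h and by -0.34 ± 0.07 at 96 h. The 96 h difference turned to 0.66 in the RUV-normalized values. Within lines, the largest called rise in 2i was that of V19 WT at 48 h (0.72 ± 0.07), and 1A WT rose by 0.57 ± 0.07 at the same time. At 96 h Fgf4 was higher than at 0 h in Eed KO (0.34 ± 0.07), V19 WT (0.19 ± 0.07) and 1A WT (0.23 ± 0.07), and lower in Ezh2 KO (-0.37 ± 0.07). The V19 WT call at 96 h was lost with RLE size factors (0.16) and without any filter, and without replicate 1 at 0 h (0.17) or replicate 2 at 96 h (0.16). Without any filter the 1A WT call at 96 h was lost too (0.23).

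Fgf17 (chromosome 14, 70873643 to 70880064, minus strand), a ligand of the Fgf8 subfamily, fell in 2i in all 4 lines. In the counts it was lower in Eed KO than in 1A WT at every time, a direction that turned at 0 and 96 h in the RUV-normalized values. In Eed KO it was at 7.37 ± 1.34, 1.57 ± 0.599, 0.656 ± 0.356, 0.686 ± 0.516 and 3.61 ± 0.717 CPM at 0, 12, 24, 48 and 96 h, with its lowest means at 24 and 48 h. Ezh2 KO had 29.5 ± 1.69, 20.1 ± 4.55, 12.2 ± 1.33, 5.32 ± 0.909 and 7.11 ± 0.385 CPM. The means in V19 WT were 47.8 ± 0.349, 45.6 ± 3.53, 25.8 ± 3.37, 10.02 ± 0.334 and 9.96 ± 2.16 CPM. 1A WT had 31.6 ± 1.7, 28.6 ± 2.56, 22.2 ± 2.13, 13.7 ± 3.23 and 10.1 ± 2.25 CPM. At 12 h the change was -2.28 ± 0.28 in Eed KO and -0.53 ± 0.14 in Ezh2 KO, both called, against -0.07 ± 0.13 in V19 WT and -0.14 ± 0.14 in 1A WT, neither called. The Eed KO response at 12 h differed from that of 1A WT by -2.14 ± 0.32 (adjusted p = 3.3e-06). From 24 h the fall was called in every line. At 96 h it was -1.02 ± 0.23 in Eed KO, -2.04 ± 0.16 in Ezh2 KO, -2.24 ± 0.16 in V19 WT and -1.65 ± 0.16 in 1A WT. The call of 1A WT at 24 h (-0.50 ± 0.14) was lost without the libraries that stand apart (-0.36). The RUV-normalized values lost the calls of Eed KO at 96 h (-0.21), Ezh2 KO at 12 h (-0.35), V19 WT at 24 h (-0.43) and 1A WT at 24 h (-0.18).

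At 24 h the Eed KO libraries had 0.966, 0.268 and 0.734 CPM of Fgf17, against 21.6, 24.6 and 20.5 CPM in 1A WT. At 0 h they had 7.24, 6.1 and 8.78 CPM, against 32, 29.7 and 33.1 CPM in 1A WT. No library of Eed KO reached the 1A WT range at any time. Its difference from 1A WT was -2.09 ± 0.17 at 0 h, -4.23 ± 0.23 at 12 h, -4.95 ± 0.25 at 24 h, -4.35 ± 0.31 at 48 h and -1.47 ± 0.22 at 96 h. In the RUV-normalized values it turned to 0.89 at 0 h and to 2.04 at 96 h, and at 48 h it was -0.42 and no longer called. At 12 and 24 h it stayed called there but shrank to -0.69 and -1.4. Against Ezh2 KO, Eed KO differed by -2.0 ± 0.17 at 0 h and -0.98 ± 0.23 at 96 h, which the RUV-normalized values turned to 0.79 and 2.36. Ezh2 KO differed from 1A WT by -0.10 ± 0.14 at 0 h, which was not called. It was lower at 12 h (-0.49 ± 0.14), 24 h (-0.87 ± 0.16) and 48 h (-1.45 ± 0.20). The call at 12 h was lost without replicate 3 of Ezh2 KO (-0.35), and the calls at 12 and 24 h were lost in the RUV-normalized values (-0.15 and -0.50). V19 WT was above 1A WT at 0 h (0.60 ± 0.14), a call lost in the RUV-normalized values (0.15). Exons of Fgf17 (6035 counts) overlap those of Gm38605 on the other strand, which held 91 counts in all. How many reads fall in the shared part was not measured.

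**Figure D1:**
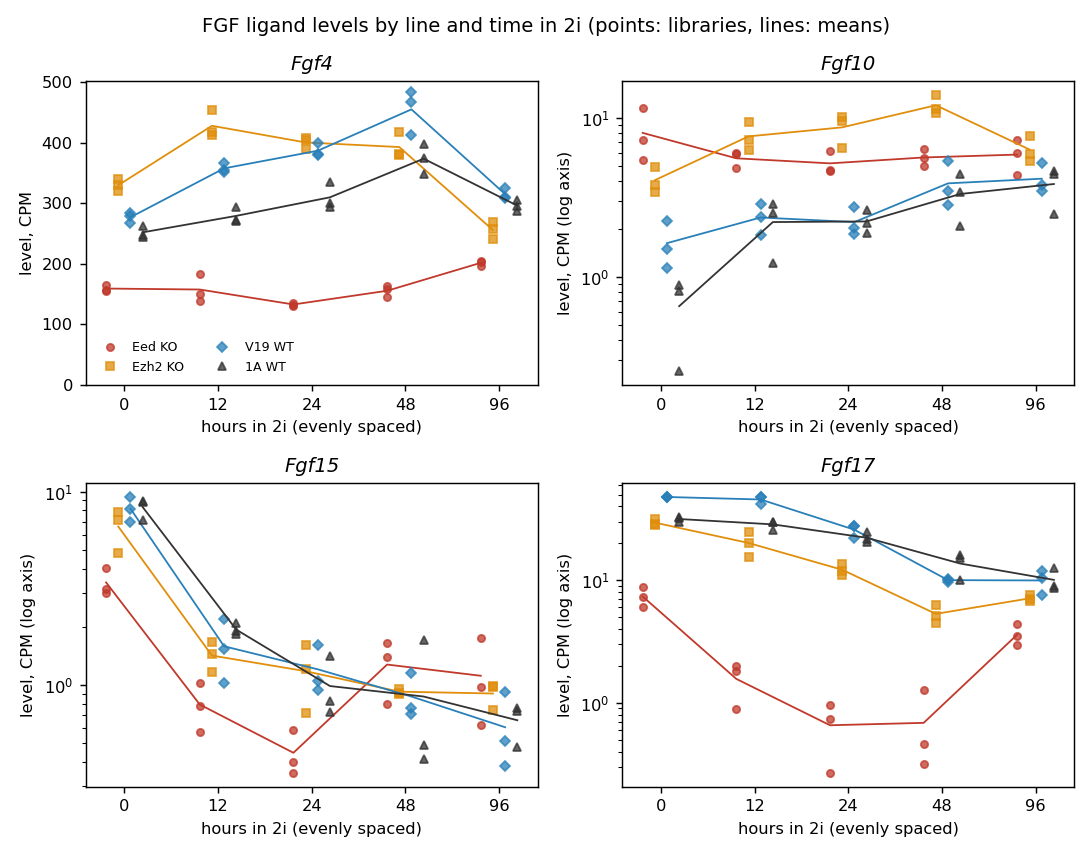
CPM of the ligands Fgf4, Fgf10, Fgf15 and Fgf17 (y axes, linear for Fgf4 and logarithmic for the others) in each of the 60 libraries against hours in 2i (x axis, evenly spaced), coloured by line, with lines through the means of 3. In these counts Eed KO lies lowest for Fgf4 and Fgf17 at every time. In the RUV-normalized values Fgf4 turns at 0, 12 and 96 h, at 12 h without a call, and Fgf17 at 0 and 96 h. In the counts Fgf15 is lower at 12 h and later than at 0 h in all 4 lines.

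Fgf15 (chromosome 7, 144450269 to 144454690, plus strand), the mouse counterpart of human FGF19 and known as a hormone of the gut that acts on the liver, lies 31.3 kilobases downstream of Fgf4. In 2i its neighbour Fgf4 was called higher in 11 of the 16 comparisons of a later time with 0 h and lower in 2. Fgf15 fell in every line, and its fall was called in all 16. At 0 h it was at 2.99, 3.14 and 4.05 CPM in Eed KO and 4.82, 7.12 and 7.86 CPM in Ezh2 KO. The wild-type levels then were 6.99, 9.43 and 8.09 CPM in V19 WT and 8.88, 8.98 and 7.12 CPM in 1A WT. At 96 h it was at 0.622, 1.75 and 0.98 CPM in Eed KO and 0.991, 0.741 and 0.982 CPM in Ezh2 KO. At that time it was at 0.919, 0.38 and 0.517 CPM in V19 WT and 0.477, 0.763 and 0.734 CPM in 1A WT. The later libraries lay below the 0 h libraries of their line at all 4 times. The 96 h change was -1.57 ± 0.31 in Eed KO, -2.83 ± 0.28 in Ezh2 KO, -3.75 ± 0.33 in V19 WT and -3.66 ± 0.31 in 1A WT. By 12 h the change was already -2.0 ± 0.34 in Eed KO and -2.11 ± 0.24 in 1A WT. Means at 12, 24 and 48 h were 0.794 ± 0.23, 0.447 ± 0.124 and 1.28 ± 0.434 CPM in Eed KO and 1.42 ± 0.25, 1.18 ± 0.451 and 0.925 ± 0.0272 CPM in Ezh2 KO. The wild-type means at these times were 1.59 ± 0.591, 1.21 ± 0.36 and 0.872 ± 0.241 CPM in V19 WT and 1.94 ± 0.131, 0.989 ± 0.368 and 0.873 ± 0.729 CPM in 1A WT. The exons overlap those of Gm26793 on the other strand, which held 104 counts beside the 778 of Fgf15, so reads of the pair cannot be told apart there.

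Eed KO started lower in Fgf15 than 1A WT (-1.31 ± 0.22 at 0 h, adjusted p = 1.3e-06). At 12 and 24 h the difference was -1.2 ± 0.38 and -1.17 ± 0.46. At 48 and 96 h it was 0.36 ± 0.44 and 0.78 ± 0.45, neither called, although both were called higher in the RUV-normalized values (1.12 and 1.28). The 96 h response of Eed KO differed from that of 1A WT by 2.09 ± 0.50 (adjusted p = 0.001), a call lost without replicate 2 of Eed KO at 96 h (1.62). The call at 24 h was lost without replicate 1 or 2 of Eed KO (-0.99 and -1.14) or replicate 2 of 1A WT (-0.85), with DESeq2 and without a filter. The call at 12 h was lost without the libraries that stand apart (-0.90). All 3 calls, at 0, 12 and 24 h, were lost in the RUV-normalized values (-0.67, -0.37 and -0.34). Against Ezh2 KO at 0 h, Eed KO was lower (-0.97 ± 0.22), a call that the RUV-normalized values also lost (-0.37). The difference between Ezh2 KO and 1A WT did not pass the test at any time. At 0 h it was -0.34 ± 0.19, with a 95% interval of -0.71 to 0.03.

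Fgf10 (chromosome 13, 118851235 to 118929109, plus strand), a ligand best known from the mesenchyme of limb and lung, was higher in both knockouts than in 1A WT at 0 h. This ligand, which signals through Fgfr2, rose in 2i in Ezh2 KO, V19 WT and 1A WT. In Eed KO it was at 7.24, 5.4 and 11.5 CPM at 0 h and in Ezh2 KO at 3.78, 3.43 and 4.93 CPM. In V19 WT it was at 1.14, 2.25 and 1.49 CPM and in 1A WT at 0.888, 0.817 and 0.254 CPM. These 1A WT libraries held 6, 5 and 1 counts of Fgf10, so changes set against them rest on few reads. Every library of either knockout was above all wild-type libraries at that time. The difference from 1A WT was 3.46 ± 0.37 for Eed KO and 2.47 ± 0.42 for Ezh2 KO. Eed KO exceeded Ezh2 KO by 1.0 ± 0.25, a call lost in the RUV-normalized values (0.15). Over time Eed KO had 8.04 ± 3.12, 5.56 ± 0.647, 5.17 ± 0.855, 5.63 ± 0.721 and 5.87 ± 1.47 CPM at 0, 12, 24, 48 and 96 h. Ezh2 KO had 4.05 ± 0.785, 7.64 ± 1.63, 8.71 ± 1.99, 12 ± 1.72 and 6.32 ± 1.18 CPM. The means in V19 WT were 1.63 ± 0.571, 2.36 ± 0.528, 2.21 ± 0.472, 3.87 ± 1.31 and 4.14 ± 0.91 CPM. 1A WT had 0.653 ± 0.347, 2.21 ± 0.875, 2.23 ± 0.38, 3.32 ± 1.19 and 3.83 ± 1.18 CPM. Ezh2 KO thus had its highest mean at 48 h, while the wild-type lines had theirs at 96 h.

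In Eed KO the change of Fgf10 was -0.55 ± 0.24 at 12 h, -0.65 ± 0.23 at 24 h, -0.52 ± 0.24 at 48 h and -0.44 ± 0.23 at 96 h. Of these only the 24 h value was called, with its libraries overlapping those at 0 h. That call was lost without replicate 3 at 0 h (-0.31) or replicate 1 (-0.56) or 3 (-0.60) at 24 h. The 12 h change passed with RLE size factors and with the stricter filter (a mean of at least 1 CPM), and the 48 h change with the stricter filter and in the RUV-normalized values (-0.87). Ezh2 KO rose by 0.88 ± 0.24, 1.12 ± 0.24, 1.59 ± 0.23 and 0.68 ± 0.25 at these times, all called. V19 WT was called at 48 h (1.2 ± 0.41) and 96 h (1.39 ± 0.37). In 1A WT the rise was 1.65 ± 0.48 at 12 h, 1.63 ± 0.48 at 24 h, 2.3 ± 0.45 at 48 h and 2.41 ± 0.43 at 96 h, all called. Tested directly, the response of Eed KO differed from that of 1A WT by -2.2 ± 0.54 at 12 h and -2.86 ± 0.49 at 96 h. The response of Ezh2 KO differed by -1.73 ± 0.52 at 96 h (adjusted p = 0.02). Without replicate 3 of Ezh2 KO at 0 h (-1.56), replicate 3 of 1A WT at 0 h (-1.47) or replicate 1 of 1A WT at 96 h (-1.56) this last difference was not called. Without the libraries that stand apart the calls of Ezh2 KO at 12 h (0.63), V19 WT at 48 h (1.1) and 1A WT at 24 h (1.37) were lost. The V19 WT call at 48 h was also lost without its replicate 1 at 0 h (0.95) or its replicate 2 at 48 h (0.97). That of Ezh2 KO at 96 h was lost with DESeq2 (0.63), in the RUV-normalized values (0.50) and without replicate 1 (0.65) or 2 (0.55) at 0 h or replicate 3 at 96 h (0.49).

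At 96 h the ranges of Fgf10 in the lines lay close together, with 4.35, 5.98 and 7.28 CPM in Eed KO and 5.95, 5.37 and 7.64 CPM in Ezh2 KO. The wild-type libraries had 3.45, 3.8 and 5.17 CPM in V19 WT and 4.62, 2.48 and 4.41 CPM in 1A WT. The difference of Eed KO from 1A WT was then 0.60 ± 0.27 (95% interval 0.08 to 1.13) and that of Ezh2 KO was 0.74 ± 0.26 (0.22 to 1.25), neither called. Both were called in the fit without the libraries that stand apart, which kept all libraries of these groups. That of Eed KO also passed with RLE size factors and in the groups compared alone. At 12 and 24 h Eed KO was higher by 1.26 ± 0.31 and 1.18 ± 0.29, calls lost in the RUV-normalized values (0.48 and 0.16). At 48 h its difference was 0.64 ± 0.30, not called, though it passed with RLE size factors, with DESeq2 and in the groups compared alone. In the RUV-normalized values the Eed KO difference was negative and not called at 48 h (-0.38) and 96 h (-0.33). Ezh2 KO was higher by 1.7 ± 0.28 at 12 h, 1.96 ± 0.28 at 24 h and 1.75 ± 0.26 at 48 h. Fgf8 (chromosome 19, 45724930 to 45731506, minus strand), a ligand of the primitive streak and of the border of midbrain and hindbrain, was close to absent, with 0 to 1.17 CPM and 130 counts over all libraries. It had a count in 49 of 60 libraries, with at most 8 in any one. The means of its groups ran from 0.0452 CPM in V19 WT at 24 h to 0.564 CPM in Ezh2 KO at 12 h. All 19 neighbouring pairs in the order of those means overlapped in their libraries.

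Fgfr1 (chromosome 8, 26008775 to 26065734, plus strand), the main FGF receptor of epiblast and embryonic stem cells, was the most abundant receptor in every group and rose modestly in 2i. In Eed KO it was at 107 ± 2.91, 104 ± 8.44, 121 ± 12.1, 108 ± 6.7 and 134 ± 5.17 CPM at 0, 12, 24, 48 and 96 h. Ezh2 KO had 83.3 ± 4.94, 95.1 ± 17.4, 109 ± 8.08, 114 ± 5.92 and 121 ± 4.25 CPM. The means in V19 WT were 99.9 ± 6.33, 119 ± 7.36, 157 ± 5.52, 153 ± 30.5 and 156 ± 10.5 CPM. 1A WT had 81 ± 3.62, 106 ± 1.84, 116 ± 14, 115 ± 13.9 and 114 ± 9.8 CPM. In each line the 96 h libraries lay above those at 0 h. The 96 h change was 0.32 ± 0.10 in Eed KO, 0.53 ± 0.10 in Ezh2 KO, 0.64 ± 0.10 in V19 WT and 0.49 ± 0.11 in 1A WT, all called. At 12 h the change was -0.05 ± 0.11 in Eed KO and 0.18 ± 0.10 in Ezh2 KO, not called. It was called in V19 WT (0.25 ± 0.10) and 1A WT (0.38 ± 0.11). The V19 WT call at 12 h (adjusted p = 0.047) was lost with a replicate block, RLE size factors, DESeq2, no filter or the stricter filter, and without replicate 2 or 3 at either time. Against 1A WT at 0 h, Eed KO had 105, 105 and 110.1 CPM and 1A WT had 76.8, 83.5 and 82.7 CPM, a difference of 0.40 ± 0.11 (adjusted p = 0.0015). At the 4 later times Eed KO differed from 1A WT by -0.08 to 0.23, none called. Ezh2 KO differed from it by -0.16 to 0.08 over all 5 times, none called. The Eed KO value at 96 h (0.23 ± 0.10, adjusted p = 0.056) passed with RLE size factors, with DESeq2 and in the groups compared alone. It also passed in the fit without the libraries that stand apart, which kept all libraries of these groups at 96 h. In that fit the Eed KO value at 24 h was 0.26, with 1 library left in 1A WT. Eed KO exceeded Ezh2 KO at 0 h by 0.36 ± 0.11, and V19 WT exceeded 1A WT at 96 h by 0.45 ± 0.10. At 0 h V19 WT already exceeded 1A WT by 0.305, which was not called. That 0 h difference passed in the groups compared alone (0.308) and in the RUV-normalized values (0.306). Exons of Fgfr1 (41680 counts) overlap those of Gm16159 (17 counts) and Gm31288 (352 counts). How many reads fall in the shared parts was not measured.

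Fgfr2 (chromosome 7, 129764181 to 129868538, minus strand), a receptor of the primitive endoderm and trophoblast, differed widely between the lines. In Eed KO it was at 49.8 ± 3.33, 26.9 ± 2.84, 37.9 ± 4.63, 47.2 ± 0.832 and 33.1 ± 2.61 CPM at 0, 12, 24, 48 and 96 h. In Ezh2 KO it was low from the start, at 6.86 ± 0.43, 8.7 ± 3.51, 6.39 ± 0.699, 5.41 ± 0.411 and 3.51 ± 0.496 CPM. V19 WT had 11.1 ± 2.84, 9.21 ± 0.83, 7.51 ± 0.294, 3.76 ± 0.957 and 2.54 ± 1.43 CPM. In 1A WT it started higher and its mean was lower at each later time, with 29.2 ± 3.58, 27.6 ± 1.43, 19.5 ± 2.21, 7.83 ± 1.15 and 2.69 ± 0.714 CPM. At 96 h Eed KO had 35, 34.1 and 30.1 CPM, against 2.87, 1.91 and 3.3 CPM in 1A WT. At 0 h Eed KO had 52.9, 50.2 and 46.3 CPM and Ezh2 KO had 6.36, 7.12 and 7.09 CPM, while V19 WT had 14, 11.1 and 8.3 CPM and 1A WT had 25.3, 32.3 and 30.01 CPM. No library overlapped the range of another line at 0 h. The 96 h change was -0.59 ± 0.13 in Eed KO, -0.94 ± 0.23 in Ezh2 KO, -2.22 ± 0.26 in V19 WT and -3.42 ± 0.21 in 1A WT, all called. Set against the response of 1A WT, that of Eed KO differed by 2.83 ± 0.26 (adjusted p = 1.7e-12) and that of Ezh2 KO by 2.48 ± 0.34 (adjusted p = 2.9e-07). For V19 WT this difference was 1.2 ± 0.39 and not called (adjusted p = 0.1). It passed without replicate 1 at 0 h (1.42) or replicate 3 at 96 h (1.52) of V19 WT. It also passed in the fit without the libraries that stand apart (1.18), which kept all libraries of this comparison.

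Between 0 and 12 h Fgfr2 fell in Eed KO (-0.88 ± 0.14), where 1A WT changed by -0.08 ± 0.15, and the responses differed by -0.80 ± 0.20 (adjusted p = 0.0053). At 24 h the change in Eed KO was -0.39 ± 0.13, a call lost without replicate 1 at 0 h (-0.34) or replicate 3 at 24 h (-0.30). At 48 h it was -0.08 ± 0.13, not called, but -0.89 and called in the RUV-normalized values. At 24 and 48 h the change was -0.58 ± 0.20 and -1.53 ± 0.25 in V19 WT and -0.57 ± 0.15 and -1.94 ± 0.18 in 1A WT, all called. The 24 h call of V19 WT was lost without its replicate 1 at 0 h (-0.37). Eed KO differed from 1A WT by 0.77 ± 0.14 at 0 h, -0.02 ± 0.15 at 12 h, 0.96 ± 0.14 at 24 h, 2.64 ± 0.18 at 48 h and 3.6 ± 0.21 at 96 h, with the 12 h value not called. With RUV normalization the direction turned at 0 h (-1.02) and 24 h (-1.17), and the 12 h value was -1.99 and called. There the 48 h value was not called (0.20), and the 96 h value stayed called at 1.45. Ezh2 KO was lower than 1A WT, with log2 fold changes of -2.08 ± 0.17 at 0 h, -1.73 ± 0.16 at 12 h and -1.62 ± 0.18 at 24 h. Its differences at 48 h (-0.49 ± 0.23) and 96 h (0.40 ± 0.29) were not called, the first being called in the RUV-normalized values (-0.81). V19 WT was lower than 1A WT at 0 h (-1.36 ± 0.17), so the wild-type lines differed from each other in this gene. Eed KO exceeded Ezh2 KO by 2.85 ± 0.16 at 0 h and 3.2 ± 0.19 at 96 h.

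**Figure D2:**
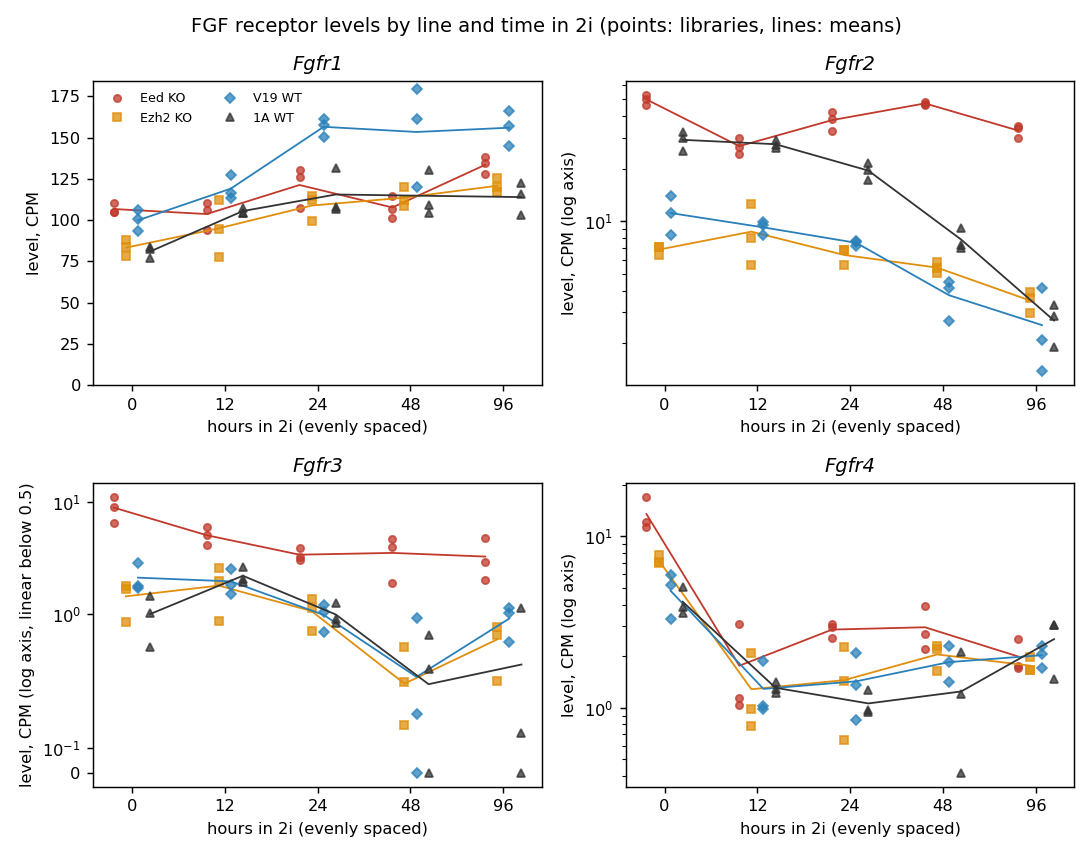
CPM of Fgfr1, Fgfr2, Fgfr3 and Fgfr4 (y axes, linear for Fgfr1, logarithmic for the others, with a linear stretch next to 0 for Fgfr3) in each of the 60 libraries against hours in 2i (x axis, evenly spaced), coloured by line, with lines through the means of 3. Fgfr2 keeps 30.1 to 35 CPM in Eed KO at 96 h, where 1A WT has 1.91 to 3.3 CPM, and Fgfr4 is lower at 12 h than at 0 h in all 4 lines.

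Fgfr3 (chromosome 5, 33879068 to 33894412, plus strand), a receptor known from the growth plate of bone, was higher in Eed KO than in Ezh2 KO and 1A WT in the counts. In the RUV-normalized values the difference from 1A WT turned at 12 and 24 h. Eed KO had 11.2, 6.45 and 9.12 CPM at 0 h, against 1.04, 1.47 and 0.509 CPM in 1A WT. At 96 h it had 4.82, 2.04 and 2.94 CPM, against 0.159, 1.14 and 0 CPM in 1A WT. The ranges did not overlap at any of the 5 times. The difference was 3.05 ± 0.37 at 0 h, 1.17 ± 0.35 at 12 h, 1.74 ± 0.41 at 24 h, 3.21 ± 0.61 at 48 h and 2.91 ± 0.54 at 96 h. All were called, though the 12 h call was lost without the libraries that stand apart (0.91). The RUV-normalized differences were -0.60 at 12 h and -0.26 at 24 h, and none was called, with 1.49 at 0 h, 1.09 at 48 h and 1.23 at 96 h. Eed KO exceeded Ezh2 KO by 2.58 ± 0.33 at 0 h and 2.33 ± 0.46 at 96 h, again not called in the RUV-normalized values (1.12 and 0.40). For its part Ezh2 KO differed from 1A WT by -0.34 to 0.58 over the 5 times, none called.

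In 2i, Fgfr3 fell in Eed KO, with 8.91 ± 2.37, 5.06 ± 0.932, 3.4 ± 0.428, 3.52 ± 1.43 and 3.27 ± 1.42 CPM at 0, 12, 24, 48 and 96 h. The change at 96 h was -1.46 ± 0.28. Ezh2 KO had 1.45 ± 0.509, 1.8 ± 0.853, 1.07 ± 0.326, 0.358 ± 0.163 and 0.598 ± 0.204 CPM. The means in V19 WT were 2.12 ± 0.65, 1.96 ± 0.519, 0.989 ± 0.269, 0.385 ± 0.477 and 0.918 ± 0.306 CPM. 1A WT had 1.0 ± 0.481, 2.21 ± 0.385, 0.997 ± 0.225, 0.356 ± 0.33 and 0.434 ± 0.62 CPM. In those 3 lines the means were lowest at 48 h. By then Ezh2 KO had changed by -1.91 ± 0.63 and V19 WT by -2.19 ± 0.69, both called, and 1A WT by -1.56 ± 0.77, not called. The 1A WT change was called in the RUV-normalized values (-1.64). The V19 WT call was lost without the libraries that stand apart (-1.18). At 12 h Eed KO changed by -0.86 ± 0.27 and 1A WT by 1.01 ± 0.49, and the responses differed by -1.87 ± 0.56 (adjusted p = 0.02). That difference was not called without replicate 1 of Eed KO at 0 h (-1.67), replicate 1 (-1.85) or 3 (-1.66) of 1A WT at 0 h or replicate 3 of 1A WT at 12 h (-1.75). It was not called either in the RUV-normalized values (-2.08). The call of Eed KO at 12 h was itself lost without replicate 1 at 0 h (-0.66) and in the RUV-normalized values (-0.93). In 3 of 60 libraries Fgfr3 had no count.

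Fgfr4 (chromosome 13, 55300631 to 55316572, plus strand), the receptor that with its co-receptor beta-Klotho (Klb) receives FGF15 in liver, fell within 12 h of 2i in every line. At 12 h it was at 1.14, 3.09 and 1.04 CPM in Eed KO, against 12.1, 17.1 and 11.3 CPM at 0 h. In Ezh2 KO it was at 0.781, 0.983 and 2.08 CPM, against 7.74, 7.0 and 7.09 CPM at 0 h. The 12 h level in V19 WT was 1.02, 1.86 and 0.982 CPM, against 5.2, 3.28 and 5.96 CPM at 0 h, and that in 1A WT was 1.42, 1.28 and 1.22 CPM, against 3.85, 5.06 and 3.56 CPM at 0 h. No 12 h library reached the 0 h range of its line. The 12 h change was -2.86 ± 0.27 in Eed KO, -2.61 ± 0.29 in Ezh2 KO, -1.91 ± 0.35 in V19 WT and -1.67 ± 0.36 in 1A WT, all called. The changes at 24 and 48 h were called in all 4 lines too. Means at 24, 48 and 96 h were 2.86 ± 0.278, 2.95 ± 0.904 and 1.99 ± 0.457 CPM in Eed KO and 1.45 ± 0.809, 2.04 ± 0.349 and 1.76 ± 0.177 CPM in Ezh2 KO. In the wild-type lines they were 1.43 ± 0.621, 1.85 ± 0.439 and 2.03 ± 0.296 CPM in V19 WT and 1.06 ± 0.181, 1.24 ± 0.851 and 2.52 ± 0.906 CPM in 1A WT. By 96 h the change was -2.73 ± 0.26 in Eed KO, -2.01 ± 0.29 in Ezh2 KO and -1.25 ± 0.33 in V19 WT, all called. In 1A WT it was -0.73 ± 0.32, not called (adjusted p = 0.051), although its libraries did not overlap those at 0 h. It passed with RLE size factors, with the stricter filter, in the groups compared alone and without the libraries that stand apart. The last of these fits kept all libraries of the groups compared. The 96 h response of Eed KO was set apart from that of 1A WT by -2.0 ± 0.43 (adjusted p = 2.7e-04). For Ezh2 KO this difference of response was -1.27 ± 0.44 (adjusted p = 0.048). That call was lost in 10 of the 12 fits that each left out 1 library (range -1.54 to -1.1), without a filter and in the RUV-normalized values (-1.15).

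The starting levels of Fgfr4 differed, with means of 13.5 ± 3.12 CPM in Eed KO, 7.28 ± 0.404 CPM in Ezh2 KO, 4.82 ± 1.38 CPM in V19 WT and 4.16 ± 0.798 CPM in 1A WT at 0 h. Eed KO exceeded 1A WT by 1.67 ± 0.23 and Ezh2 KO exceeded it by 0.78 ± 0.25 (adjusted p = 0.018). The Ezh2 KO call was lost without its replicate 1 (0.74) or replicate 1 (0.71) or 3 (0.71) of 1A WT, and in the RUV-normalized values (0.75). Eed KO exceeded Ezh2 KO by 0.89 ± 0.21, which was not called in the RUV-normalized values (0.49). At 24 and 48 h Eed KO was above 1A WT by 1.41 ± 0.38 and 0.98 ± 0.41, and at 12 h (0.47 ± 0.42) and 96 h (-0.33 ± 0.35) the difference was not called. Without the libraries that stand apart the 12 h difference was 1.22. It then rested on 1 Eed KO library, the highest of its group (3.09 CPM). In the same fit the 48 h difference was not called (0.78). The 48 h call was also lost without replicate 3 of Eed KO (0.76) or replicate 1 (0.81) or 3 (0.76) of 1A WT. Both the 24 h and 48 h calls were lost in the RUV-normalized values (0.83 and 0.74).

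The proportions of the receptors changed in 2i and differed between lines. Of the summed CPM per kilobase of the 4 receptors, Fgfr1 made up 58.2 ± 2.43% in Eed KO at 0 h, 81.5 ± 0.637% in Ezh2 KO, 83.3 ± 1.09% in V19 WT and 70.02 ± 1.93% in 1A WT. By 96 h it made up 78 ± 1.48% in Eed KO, 94.8 ± 0.832% in Ezh2 KO, 96.1 ± 0.901% in V19 WT and 94.4 ± 0.605% in 1A WT. Ezh2 KO and both wild-type lines thus ended with nearly all receptor RNA from Fgfr1. The share of Fgfr2 at 96 h was 18.2 ± 1.65% in Eed KO, with libraries from 16.3 to 19.5%. It was 2.14 ± 0.742% in 1A WT, with libraries from 1.38 to 2.86%. At 0 h the same share was 25.5 ± 1.38% in Eed KO, 6.3 ± 0.166% in Ezh2 KO, 8.69 ± 1.91% in V19 WT and 23.7 ± 1.36% in 1A WT. Fgfr4 held 11 ± 2.46% in Eed KO and 10.7 ± 1.14% in Ezh2 KO at 0 h, against 5.36 ± 0.797% in 1A WT. At 12 h it held 1.89 ± 1.16% in Eed KO, 1.72 ± 0.584% in Ezh2 KO and 1.44 ± 0.128% in 1A WT. These shares are descriptions with no test of their own.

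**Figure D3:**
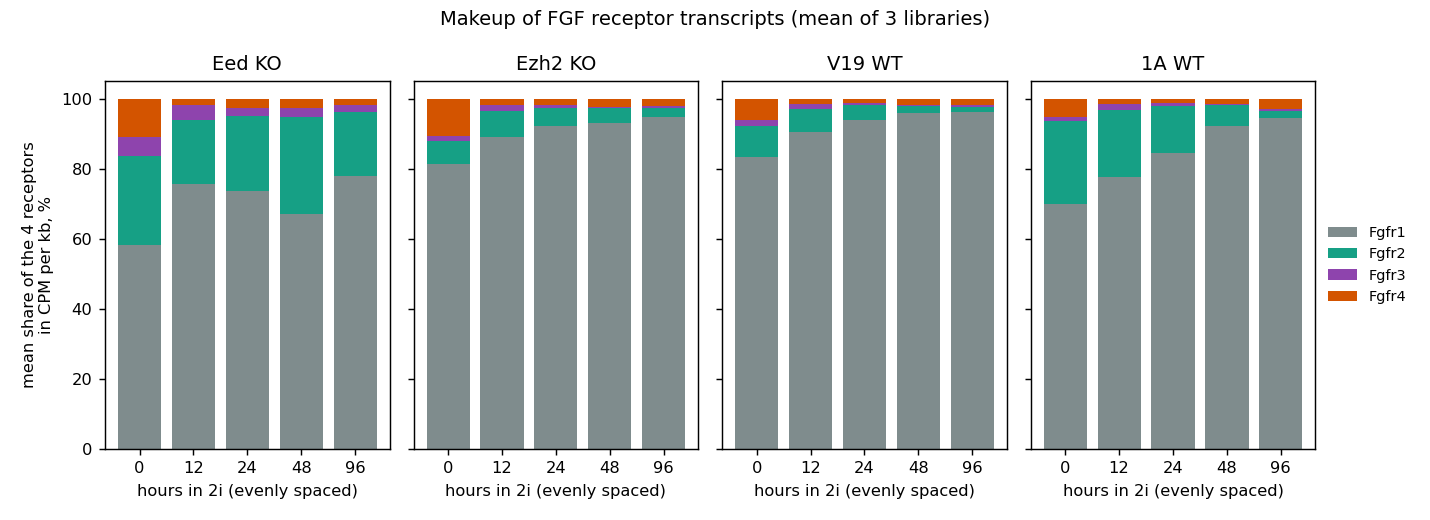
Share of each receptor in the summed CPM per kilobase of Fgfr1 to Fgfr4 (stacked bars from 0 to 100%, means of 3 libraries) for each line and time in 2i. At 96 h Fgfr1 makes up 78% in Eed KO and 94.4% in 1A WT, and Fgfr2 makes up 18.2% in Eed KO and 2.14% in 1A WT.

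Counted over the 8 members tested, the 2i response in Eed KO was called for 5 at 12 h (0 up and 5 down), 7 at 24 h (0 up and 7 down), 4 at 48 h (0 up and 4 down) and 7 at 96 h (2 up and 5 down), beside 50.3, 41.1, 49.2 and 39.7% of all genes tested. In Ezh2 KO the members called numbered 5 at 12 h (2 up and 3 down), 6 at 24 h (3 up and 3 down), 7 at 48 h (3 up and 4 down) and 7 at 96 h (2 up and 5 down), beside 50.1, 46.7, 49.1 and 42.8% of all genes. The V19 WT counts were 4 at 12 h (2 up and 2 down), 6 at 24 h (2 up and 4 down), 8 at 48 h (3 up and 5 down) and 7 at 96 h (3 up and 4 down), beside 42.3, 40.4, 50.8 and 47.5% of all genes. In 1A WT they were 4 at 12 h (2 up and 2 down), 7 at 24 h (3 up and 4 down), 7 at 48 h (3 up and 4 down) and 6 at 96 h (3 up and 3 down), beside 40.8, 46.4, 53 and 48.6% of all genes. Since 39.7 to 53% of all genes tested were called in these comparisons, a count of 4 of 8 members is close to that background. The comparisons of a line share its 0 h libraries, and only Fgf15 had the same call in all 16, lower throughout. Fgfr4 was lower in 15 of the 16 and Fgf17 in 14.

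Against 1A WT, the members called in Eed KO numbered 8 at 0 h (5 up and 3 down), 5 at 12 h (2 up and 3 down), 7 at 24 h (4 up and 3 down), 5 at 48 h (3 up and 2 down) and 4 at 96 h (2 up and 2 down), beside 49.6, 54.7, 62.8, 66 and 55.3% of all genes. At 0 h all 8 members differed in the counts of Eed KO, Fgf10 and the 4 receptors being higher and Fgf4, Fgf15 and Fgf17 lower. Fgfr2, Fgf4 and Fgf17 turned in the RUV-normalized values. Those called in Ezh2 KO numbered 4 at 0 h (3 up and 1 down), 4 at 12 h (2 up and 2 down), 4 at 24 h (2 up and 2 down), 2 at 48 h (1 up and 1 down) and 1 at 96 h (0 up and 1 down), beside 22.8, 25.2, 29.3, 32.2 and 13.2% of all genes. The member called at 96 h was Fgf4. All these comparisons share the 1A WT libraries of their time. Between the knockouts, the members called in Eed KO against Ezh2 KO were 8 (5 higher, 3 lower, beside 45.3% of all genes) at 0 h and 4 (2 higher, 2 lower, beside 52.1% of all genes) at 96 h. V19 WT and 1A WT differed in 2 (1 higher, 1 lower, beside 10.5% of all genes) at 0 h and in 1 (1 higher, 0 lower, beside 7.45% of all genes) at 96 h. The difference of the 2i response from that of 1A WT was called in Eed KO for 4 (0 higher, 4 lower, beside 11.2% of all genes) at 12 h and 4 (2 higher, 2 lower, beside 27.3% of all genes) at 96 h. For Ezh2 KO it was called for 0 (beside 2.91% of all genes) at 12 h and 4 (1 higher, 3 lower, beside 12.2% of all genes) at 96 h. For V19 WT it was called for 0 (beside 0.119% of all genes) at 12 h and 0 (beside 1.68% of all genes) at 96 h. Where edgeR called none, members at an unadjusted p under 0.05 numbered 1 for Ezh2 KO at 12 h, 1 for V19 WT at 12 h and 2 for V19 WT at 96 h, and DESeq2 called 0, 0 and 0. Without the libraries that stand apart, 3 members were called in Ezh2 KO against 1A WT at 96 h (Fgf4, Fgf10 and Fgf17) and 1, Fgfr2, in the difference of the V19 WT response at 96 h. That fit kept all libraries of both comparisons, so these counts moved with the refitted spread, scaling and filter. In the RUV-normalized values the members called in Eed KO against 1A WT numbered 6 at 0 h (5 up and 1 down), 2 at 12 h (0 up and 2 down), 3 at 24 h (0 up and 3 down), 2 at 48 h (1 up and 1 down) and 4 at 96 h (4 up and 0 down). At 96 h the members called there were Fgf4, Fgf15, Fgf17 and Fgfr2, all higher. Those called in Eed KO against Ezh2 KO at 0 h numbered 4. Of all genes, these values called 3005, 3747, 1335, 4416 and 3486 for Eed KO against 1A WT at 0, 12, 24, 48 and 96 h. The main test called 7488, 8250, 9466, 9948 and 8337 there. For Eed KO against Ezh2 KO at 0 h, 1737 genes were called in the RUV-normalized values and 6832 in the main test.

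**Figure D4:**
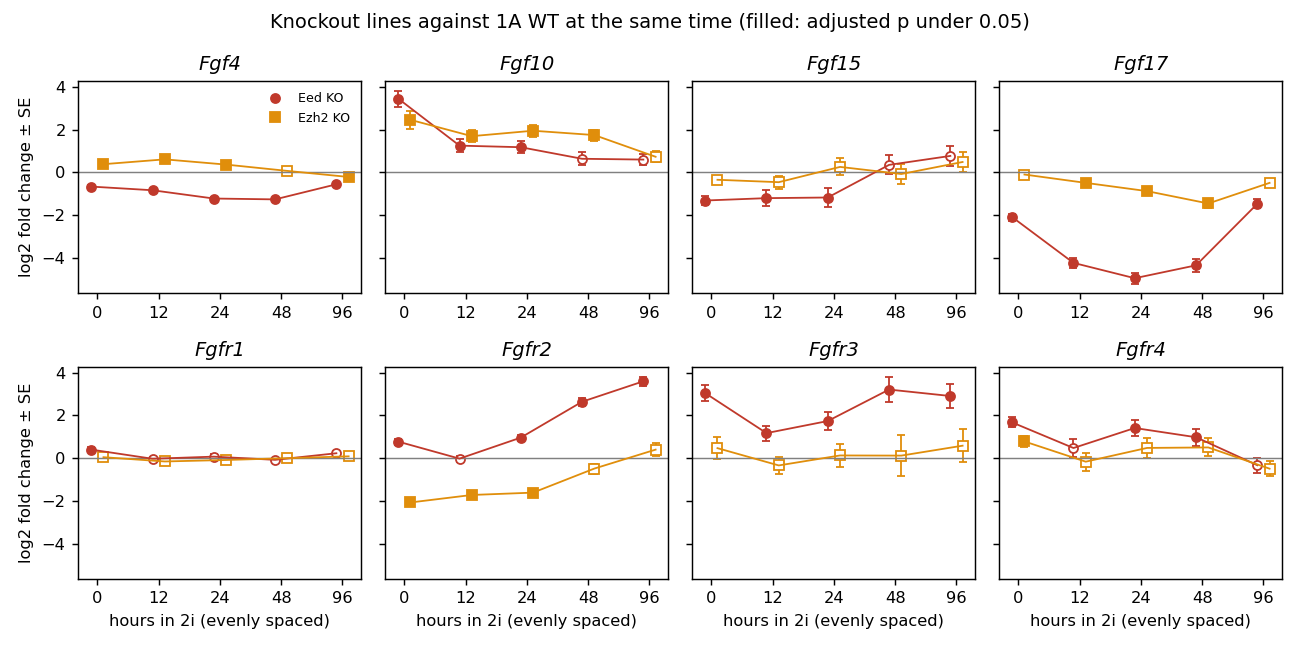
Log2 fold change against 1A WT at the same time (y axis, bars of 1 SE on each side) of the 8 members tested, for Eed KO and Ezh2 KO against hours in 2i (x axis, evenly spaced), filled where called. In Eed KO Fgf17 lies below 0 and Fgfr3 above 0 at all 5 times. In the RUV-normalized values Fgf17 turns at 0 and 96 h, and Fgfr3 changes sign at 12 and 24 h without a call. Fgfr2 in Eed KO reaches 3.6 at 96 h.

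**Figure D5:**
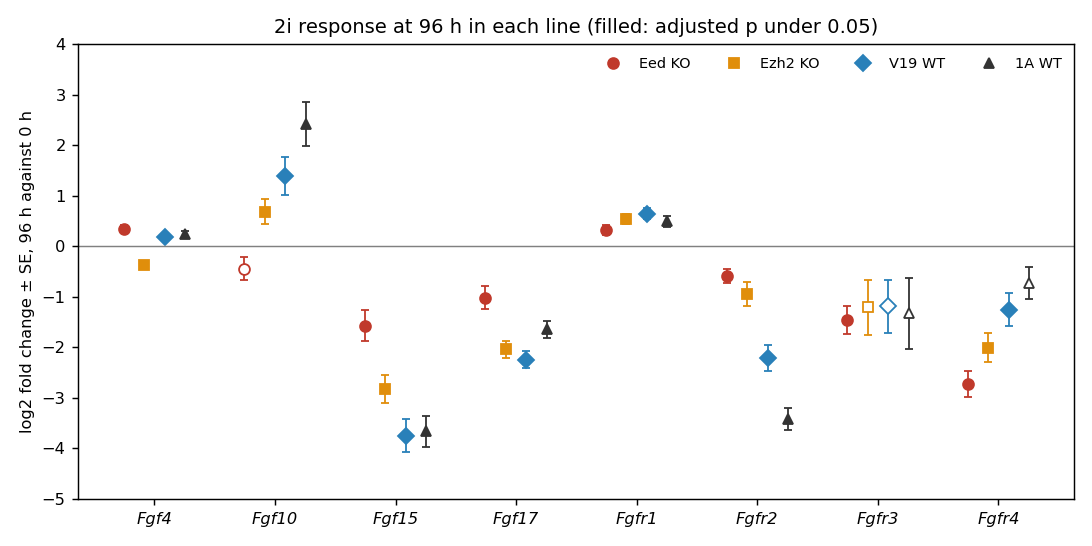
Log2 fold change at 96 h against 0 h of the 8 members tested (x axis; y axis with bars of 1 SE on each side) in each of the 4 lines, filled where called. Fgf15, Fgf17 and Fgfr2 lie below 0 in all 4 lines, Fgfr2 at -0.59 in Eed KO and at -3.42 in 1A WT, while Fgf10 lies at -0.44 in Eed KO and at 2.41 in 1A WT.

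Downstream of the receptors, the feedback inhibitors and target genes of ERK fell together within 12 h in every line. At 12 h against 0 h this list had 0 higher and 17 lower of 19 tested (median -1.83) in Eed KO and 0 higher and 18 lower (median -1.5) in Ezh2 KO. At the same time it had 0 higher and 18 lower (median -1.61) in V19 WT and 0 higher and 18 lower (median -1.91) in 1A WT. Of all genes tested, 25.2% in Eed KO, 23.9% in Ezh2 KO, 20.8% in V19 WT and 20.8% in 1A WT were called lower at 12 h. Medians over all genes were 0.02 to 0.05. Spry4, a feedback inhibitor of receptor signalling, changed by -7.45 ± 0.19 in Eed KO and -4.76 ± 0.14 in 1A WT. Dusp6, a phosphatase of ERK, changed by -5.65 ± 0.15 in Eed KO and -4.19 ± 0.12 in 1A WT. At 96 h the list had 1 higher and 13 lower of 19 tested (median -1.03) in Eed KO and 0 higher and 14 lower (median -1.41) in Ezh2 KO. At the same time it had 0 higher and 15 lower (median -1.37) in V19 WT and 1 higher and 15 lower (median -1.19) in 1A WT. The genes called lower at 96 h made up 16.4% in Eed KO, 20.7% in Ezh2 KO, 22.7% in V19 WT and 23.5% in 1A WT of all tested. Before 2i, at 0 h, Eed KO against 1A WT had 3 higher and 12 lower of 19 tested (median -0.48), beside 26.4% of all genes higher and 23.3% lower. Among them were the transcription factors Egr1 at -1.99 ± 0.16, Myc at -1.15 ± 0.09 and Etv5 at -0.84 ± 0.09 and the inhibitor Spred1 at -1.58 ± 0.12. Ezh2 KO against 1A WT at 0 h had 4 higher and 5 lower of 19 tested (median -0.17), beside 11.9% of all genes higher and 10.9% lower. Over all genes the median was 0.00 for Eed KO and 0.01 for Ezh2 KO against 1A WT at 0 h. The medians over all genes at 96 h against 0 h were 0.05 in Eed KO, 0.02 in Ezh2 KO, 0.01 in V19 WT and 0.02 in 1A WT. The list and marker results here and below are from the counts alone. In the RUV-normalized values, 12 member results of Eed KO against another line turned direction, not all with a call there. A further 17 lost a call, 5 gained one and 22 held.

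Counting both directions, adaptors and kinases between receptor and ERK were called at 12 h about as often as genes in general. More were called lower than higher in every line. Their summed level was lower at 12 h than at 0 h in every line, without overlap of libraries. In Eed KO it was 2366 to 2375 CPM at 0 h and 1896 to 1948 at 12 h. In 1A WT it was 2544 to 2685 CPM at 0 h and 2083 to 2123 at 12 h. At 12 h this list had 2 higher and 10 lower of 22 tested (median -0.14) in Eed KO and 5 higher and 8 lower (median -0.14) in Ezh2 KO. At the same time it had 3 higher and 8 lower (median -0.10) in V19 WT and 2 higher and 7 lower (median -0.16) in 1A WT. Of all genes, 50.3% in Eed KO, 50.1% in Ezh2 KO, 42.3% in V19 WT and 40.8% in 1A WT were called in either direction. The shares of all genes called lower at 12 h are those given above beside the ERK targets. The adaptor Shc1 changed by -1.37 ± 0.11 in Eed KO and -1.05 ± 0.11 in 1A WT, and the adaptor Grb2 by -0.75 ± 0.07 in Eed KO and -0.61 ± 0.07 in 1A WT. Against 1A WT at 0 h, Eed KO had 7 higher and 6 lower of 22 tested (median -0.14), beside the shares of all genes just given for that comparison. Among them were the docking protein Gab2 at 2.94 ± 0.39 and Mapk3, which encodes ERK1, at -1.09 ± 0.10. Co-receptors and heparan sulfate genes in the same comparison had 14 higher and 2 lower of 25 tested (median 0.35), beside 26.4% of all genes higher and 23.3% lower. Klb, the co-receptor of Fgfr4 and of Fgfr1 for endocrine ligands, was higher in Eed KO by 4.63 ± 0.39. Flrt3, a membrane partner of Fgfr1, was higher by 2.46 ± 0.19 and the glypican Gpc3 by 1.6 ± 0.11, while Ext1, an enzyme that elongates heparan sulfate chains, was lower (-1.07 ± 0.08). In Ezh2 KO at 0 h the list had 3 higher and 9 lower of 25 tested (median -0.02), beside 22.8% of all genes in either direction. It included the sulfotransferase Hs6st2 at -3.29 ± 0.30. In 2i for 96 h it had 10 higher and 8 lower in Eed KO, 11 higher and 3 lower in Ezh2 KO, 11 higher and 5 lower in V19 WT and 10 higher and 6 lower in 1A WT. The share of all genes called at 96 h was 39.7% in Eed KO, 42.8% in Ezh2 KO, 47.5% in V19 WT and 48.6% in 1A WT. The core protein Sdc2 rose by 1.71 ± 0.14 in Eed KO and 2.25 ± 0.13 in 1A WT.

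Of 17 other FGF ligands 5 were tested, Fgf1, Fgf3, Fgf11, Fgf13 and Fgf18. The summed level of the 17 was 19.9 to 30.1 CPM in Eed KO, 10.02 to 13.4 in Ezh2 KO, 7.29 to 18.1 in V19 WT and 9.15 to 21.4 in 1A WT. Fgf6 had 1 count in all. Fgf1, which binds all FGF receptors, changed at 12 h by -3.12 ± 0.51 in Eed KO, -2.51 ± 0.58 in Ezh2 KO, -3.35 ± 0.46 in V19 WT and -2.35 ± 0.52 in 1A WT, all called. Fgf11, an intracellular member of the family, rose at 96 h by 0.95 ± 0.27 in Eed KO, 1.45 ± 0.27 in Ezh2 KO, 2.23 ± 0.31 in V19 WT and 1.06 ± 0.30 in 1A WT. Against 1A WT at 0 h, Eed KO was higher in Fgf3 (2.06 ± 0.25) and Fgf13 (1.21 ± 0.23) and lower in Fgf18 (-1.08 ± 0.37). Ezh2 KO was lower in Fgf13 (-1.01 ± 0.30) and Fgf18 (-2.02 ± 0.41).

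Most markers of extraembryonic cells were higher in Eed KO than in 1A WT at 0 and 96 h in the counts. As background for the counts of markers called, Eed KO against 1A WT had 26.4% of all genes higher and 23.3% lower at 0 h, and 30.9% higher and 24.4% lower at 96 h. Ezh2 KO against 1A WT had 11.9% higher and 10.9% lower at 0 h, and 6.56% higher and 6.65% lower at 96 h. All 14 primitive endoderm markers were higher in Eed KO than in 1A WT at 0 h (median 4.04) and 13 at 96 h (median 2.7). Their summed level was 5900.0 to 6246 CPM in Eed KO, against 755 to 829 CPM in 1A WT, at 0 h. At 96 h it was 2404 to 2690.0 CPM in Eed KO, against 889 to 1001 CPM in 1A WT. In 2i for 96 h 13 of the 14 fell in Eed KO (median -1.97), beside 16.4% of all genes. All 12 trophoblast markers were higher in Eed KO at 0 h (median 2.75) and 11 at 96 h (median 2.53). Their summed level was 1789 to 2326 CPM in Eed KO, against 317 to 364 CPM in 1A WT, at 0 h. At 96 h it was 3069 to 3189 CPM in Eed KO, against 416 to 500.2 CPM in 1A WT. In Ezh2 KO against 1A WT, primitive endoderm markers had 13 higher and 0 lower of 14 tested (median 1.14) at 0 h and 1 higher and 2 lower of 14 tested (median 0.18) at 96 h. Trophoblast markers had 6 higher and 3 lower of 12 tested (median 0.33) at 0 h and 5 higher and 3 lower of 12 tested (median 0.27) at 96 h. Fibroblast and feeder markers summed to 39.5 to 43.9 CPM in Eed KO, against 18.6 to 24.7 CPM in 1A WT, at 0 h, with 5 higher and 1 lower of 7 tested (median 1.32). Among them Fap had 2 counts and Lum 12 counts over all libraries. Primitive streak markers summed to 14.3 to 16.5 CPM in Eed KO, against 2.54 to 5.72 CPM in 1A WT, at 0 h, with 2 higher and 0 lower of 4 tested (median 1.71). In this list T and Cer1 were at 0 counts in every library. The 10 embryonic stem cell markers had 4 higher and 4 lower in Eed KO against 1A WT at 0 h and 0 higher and 6 lower at 96 h. The part of these cell types in the levels of Fgfr2, Fgfr3, Fgfr4, Fgf10, Fgf4 and Fgf17 in Eed KO was not tested.

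As a description, the genes whose mean log2 CPM over the 20 groups was most correlated with that of each member were looked up among 12942 genes. The groups share lines, times and library processing. By Pearson's r, nearest to Fgf4 were Xrcc5 (0.928), B4galnt4 (0.922) and Yars (0.922), to Fgf10 Lpar1 (0.926), Reep1 (0.916) and M1ap (0.913). Those nearest to Fgf15 were Pim2 (0.954), Pdk1 (0.947) and Ccdc194 (0.942), and to Fgf17 Wdr75 (0.971), Kif7 (0.963) and Ppp1r8 (0.953). Among receptors, nearest to Fgfr1 were Tctn3 (0.860), Tmem192 (0.811) and Galnt2 (0.809), to Fgfr2 Ghr (0.957), Lrrc3 (0.954) and Ube2e1 (0.947). In the same way those of Fgfr3 were Cacna1g (0.909), P3h2 (0.899) and Tent5c (0.899), and to Fgfr4 F5 (0.941), Itga3 (0.907) and Gsx1 (0.898). Fgfr1 had the weakest nearest neighbour of the 8 and Fgf17 the closest.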

How the data were processed

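Mouse embryonic stem cells of 4 lines were sampled at 5 times in 2i, giving 60 RNA-seq libraries. The deposited counts are whole numbers of reads per gene; the submitters' processing notes name STAR 2.7.10b, featureCounts 2.0.3 and DESeq2, with GRCm39 (also written mm39) as the build. A second table of the authors' holds a score, namely counts adjusted for unwanted variation (RUV) and rounded; its settings are not given in the sources used here, so what was removed is unknown. Exon lengths and coordinates are those deposited beside the counts. The kit is not stated to keep strand, so reads of overlapping antisense genes cannot be told apart.

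Tests used edgeR's quasi-likelihood method (edgeR 4.0.16, R 4.3.3) with TMM factors and 1 model of 20 groups. Genes had to pass filterByExpr by group (minimum count 10, minimum total 15), and p-values of each of the 36 comparisons were adjusted over 15083 genes by the Benjamini-Hochberg method. SE is the size of a log2 fold change divided by the square root of its F statistic, and 95% intervals span 1.96 SE on each side. Correlations between genes used log2 CPM with a prior count of 2. The steps were run on simulated counts with the same dispersion for all genes, as a check of the code. Recovery of the members, or of genes with few counts, was not read from it. As alternatives, library factors were set by RLE, the filter was dropped or raised to a mean of 1 CPM over all libraries, the replicate number was added as a block, DESeq2 1.42.0 took the place of edgeR, and each comparison was fitted on its own groups. The RUV score was tested with limma-trend (limma 3.58.1) as log2(value + 1). Every library compared was also left out in turn, with the genes tested and the dispersion trend held. A last alternative, chosen after seeing the data, dropped the 10 libraries that stand apart, with deviations taken over genes at a mean of at least 10 CPM. It leaves 1 library each in Eed KO and Ezh2 KO at 12 h, V19 WT at 48 h and 1A WT at 24 h, assumed to vary like the other groups.

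The members and gene lists were chosen with earlier results of these data known. The text names the 9 members, the 3 genes most like each by Pearson's r, from each list up to 4 called genes, taken by lowest adjusted p, and Ezh2 and Eed; genes named for having few counts or none were chosen after their values were seen. The labels call the replicates biological but do not say which cultures they came from, so p-values measure the spread between these samples, which may be partly technical. No 2 libraries of a group were alike within sampling noise: over the 60 pairs, chi-square per degree of freedom ran from 1.13 to 28.4. No label says that a replicate number marks a shared day. Deviations of same-numbered libraries from their group means correlated above 0.1 in all 3 pairs for 13 of 190 pairs of groups, and of the comparisons made this held for V19 WT at 48 h against 0 h, where the block changed no call of a member.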

Additional observations from a re-analysis of the deposited data

Results flagged for a closer look

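In 12 cases a member's response to 2i differed between a line and 1A WT by a test of the difference itself (edgeR, adjusted p under 0.05). At 12 h in Eed KO these were Fgf10 (-2.2 ± 0.54), Fgf17 (-2.14 ± 0.32), Fgfr2 (-0.80 ± 0.20) and Fgfr3 (-1.87 ± 0.56). At 96 h in Eed KO they were Fgf10 (-2.86 ± 0.49), Fgf15 (2.09 ± 0.50), Fgfr2 (2.83 ± 0.26) and Fgfr4 (-2.0 ± 0.43). At 96 h in Ezh2 KO they were Fgf4 (-0.60 ± 0.10), Fgf10 (-1.73 ± 0.52), Fgfr2 (2.48 ± 0.34) and Fgfr4 (-1.27 ± 0.44). Values are log2 differences ± SE of the knockout's change from that of 1A WT, over 3 libraries in each of 4 groups. Fgf10 and Fgfr2 appear in all 3 comparisons, which share the 0 h libraries of 1A WT and, at 96 h, those of that time. In the 0 h libraries of 1A WT, Fgf10 had 12 counts in all. These comparisons called 11.2, 27.3 and 12.2% of all genes, in the order given. In all, 6 such comparisons of 8 members were tested, and the others called no member. The calls of Fgfr3 and Fgf15 in Eed KO and of Fgf10 and Fgfr4 in Ezh2 KO were each lost without certain single libraries. Those of Fgfr3 in Eed KO and Fgfr4 in Ezh2 KO were also lost in the RUV-normalized values.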

How the results depend on the processing

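Each setting was read on 288 member results, or on 257 for the groups compared alone, where some members fell below the filter. Direction and call held in 281 with RLE size factors, 281 with DESeq2, 279 without a filter, 283 with the stricter filter, 247 in the groups compared alone and 267 without the libraries that stand apart. With the replicate number as a block 287 held, and the call that changed was that of Fgfr1 in V19 WT at 12 h against 0 h (0.25, adjusted p = 0.0502); the numbers are shared in the labels without a stated shared day. With each library left out in turn, 1940 fits held, 51 lost a call and 25 gained one. In 101 fits over all settings the sign differed with no call in either fit.

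In the RUV-normalized values 228 held, 31 calls were lost, 16 gained and 13 turned direction, and the cause was not tested. A result was counted as turned where its sign differed and at least 1 of the 2 fits called it. Of those that turned, Fgf4 at 12 h and Fgfr3 at 12 and 24 h were not called in the RUV-normalized values. For Eed KO against 1A WT those that turned were Fgf4 at 0 h (0.21), 12 h (0.20) and 96 h (0.46), Fgf17 at 0 h (0.89) and 96 h (2.04), Fgfr2 at 0 h (-1.02) and 24 h (-1.17), and Fgfr3 at 12 h (-0.60) and 24 h (-0.26). For Eed KO against Ezh2 KO they were Fgf17 at 0 h (0.79) and 96 h (2.36) and Fgf4 at 96 h (0.66). Fgf4 in Eed KO at 48 h against 0 h turned to 0.23. The targeted gene Eed differed between Eed KO and 1A WT by -0.61 at 0 h in these values and by -3.94 in CPM, whereas Ezh2 in Ezh2 KO differed by -3.69 in these values and by -3.67 in CPM. They moved the median of all genes by up to 0.10 (log2).

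Counts of members called moved by over 1.5 times in a few comparisons. In the RUV-normalized values they were 2 at 12 h, 3 at 24 h and 2 at 48 h for Eed KO against 1A WT (5, 7 and 5 in the main test), 4 for Eed KO against Ezh2 KO at 0 h (8) and 7 for Eed KO at 48 h against 0 h (4). For Ezh2 KO against 1A WT at 96 h they were 0 in the groups compared alone, without a filter and in the RUV-normalized values, 3 without the libraries that stand apart and 0 to 1 with a library left out (1). For the difference of the V19 WT response at 96 h the count was 1 without the libraries that stand apart and 0 to 1 with a library left out (0), and for that of Ezh2 KO at 96 h it was 2 to 4 with a library left out (4). Over all genes, the RUV-normalized values called 3747, 1335 and 4416 for Eed KO against 1A WT at 12, 24 and 48 h. The main test called 8250, 9466 and 9948 there. For Eed KO against Ezh2 KO at 0 h they called 1737 genes (6832 in the main test). For Eed KO at 48 h against 0 h they called 5715 (7419). Depth limits Fgf8, Fgf15, Fgfr3 and Fgfr4, whose median counts per library were 2, 7, 9 and 11.5. It also limits Fgf10 (median 25) where 1A WT at 0 h is the base, with 12 counts in all.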
